A study of Rattus norvegicus with 16 samples.

Results

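Aerobic interval training in high capacity runner (HCR) rats was described from 8 left ventricle arrays, 4 of exercise-trained HCR rats and 4 of sedentary HCR rats, out of 16 arrays in the series. The arrays were chosen by their sample titles, and 31042 probe sets, all on the array but the manufacturer's controls, were compared as trained minus sedentary. HCR trained rats ran uphill at 25 degrees on a treadmill for 1.5 hours, 5 days per week over 8 weeks, with 8-minute bouts at 85 to 90% of maximal oxygen uptake separated by 2 minutes at 50 to 60%. HCR sedentary rats did not train. Both groups were female, about 7 months old, carried no engineered allele and belonged to generation 16 of a line bred from N:NIH stock for high treadmill capacity, selected on a test at about 11 weeks of age. The other 8 arrays came from trained and sedentary rats of the opposite line, the low capacity runners (LCR), 4 each. These rats were also about 7 months old, of generation 16 and tested at about 11 weeks. The trained LCR rats trained for 1.5 hours, 5 days per week over 8 weeks, and the sedentary LCR rats did not train. Each array held 1 rat, the rats are numbered within their group by the sample titles, and the numbers given for HCR run from 3 to 6 in both groups. The line is an outbred, selected stock and not a single-gene model, and the tissue is a piece of whole ventricle.

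The left ventricle adapts to repeated aerobic work by physiological growth of its muscle cells, which runs largely through insulin-like growth factor, PI3K, Akt and mTOR signalling. Trained hearts are also known for altered calcium handling, fuel use and capillary supply, without the return to fetal genes that marks pathological growth. Immediate early genes such as Fos and Egr1 encode short-lived transcription factors whose mRNA appears within minutes of a stimulus and decays soon after.

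Values are the deposited RMA values, taken as log2, so that a difference of 1 is a 2-fold difference. Array medians were 5.88 to 5.91 in trained rats and 5.90 to 5.95 in sedentary rats, and correlations between arrays of all probe sets ranged from 0.987 to 0.995. Sedentary rat 5 had Xist, the RNA that coats the inactive X, at 3.76 to 4.94 on 4 probe sets, whereas the other 7 HCR arrays had it at 7.56 to 10.34. Its Y-linked probe sets were not high: Eif2s3y was at 3.53 in sedentary rat 5 and at 3.33 to 3.45 in the other 7, and the brighter Uty probe set was at 6.15 and at 6.92 to 7.29. The array goes against its female label on Xist. Trained rat 6 lay at 23.7 on the second principal component of the 8 arrays, which carried 19.8% of their variance, against -13.4 to 8.98 in the other 7. Cardiomyocyte markers were bright in every array, with 12 of 12 at or above the median of all probe sets, and their summed linear level was 138371 to 143369 in trained rats and 131658 to 142526 in sedentary rats. In whole tissue, fewer cells of a type and less RNA per cell cannot be told apart.

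No probe set passed the test in HCR: limma called 0 of 31042 (0%) at an adjusted p of 0.05 or less, and 4308 (13.9%) had an unadjusted p under 0.05, 2014 of them higher and 2294 lower in trained rats. Leaving out 1 rat moved the unadjusted count to between 2616 without trained rat 4 and 5449 without trained rat 6, with 2851 without sedentary rat 5. The lowest adjusted p was 0.0927, shared by 7 probe sets. The median difference over all probe sets was -0.01 and the median absolute difference 0.0812, and 17 probe sets differed by 2-fold or more, 14 higher and 3 lower. The groups did not overlap on 1172 probe sets that were higher (3.78%) and on 1310 that were lower (4.22%). Over 14217 genes, each read from its brightest probe set, 641 were higher without overlap (4.51%), 538 were lower without overlap (3.78%) and 1179 did either (8.29%). Accordingly, each gene below is given by its values, and none of them passed the adjusted test.

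The probe set of lowest p has no gene symbol here, and the genes described next are the bright, single-symbol ones of lowest p. Actr3b, which encodes a subunit of the actin-nucleating Arp2/3 complex, measured 8.10, 7.96, 7.86 and 7.95 in trained rats, against 7.40, 7.59, 7.28 and 7.31 in sedentary rats. Every trained rat lay above every sedentary rat, with a mean of 7.97 ± 0.0991 in trained rats and 7.40 ± 0.140 in sedentary rats (SD, n = 4 each), and the difference was 0.57 ± 0.0902 (SE, adjusted p = 0.0927). Lmo7, which encodes a protein with LIM and PDZ domains found at cell junctions, measured 9.26, 8.85, 9.08 and 8.75 in trained rats, against 8.00, 8.45, 8.10 and 7.94 in sedentary rats. Its difference of 0.86 ± 0.146 (SE, adjusted p = 0.0927) was a fold of 1.82 and the largest among the 24 genes of lowest p, and again the groups did not overlap. Ppm1j, a protein phosphatase gene, measured 8.37, 8.02, 8.16 and 8.03 in trained rats, against 7.53, 7.45, 7.62 and 7.78 in sedentary rats, with a difference of 0.55 ± 0.0950 (SE, adjusted p = 0.0935). All 4 probe sets of Lmo7 were higher in trained rats, by 0.18, 0.29 and 0.58 on the other 3.

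The other 9 genes of lowest p on the higher side differed by 0.23 to 0.62, with adjusted p between 0.109 and 0.163. They were Rnf207 at 0.62, a RING finger protein of heart muscle, LOC102547411 at 0.50, Paqr6 at 0.49, a membrane progestin receptor, Zfp704 at 0.44, a zinc finger gene, and Atosa at 0.39. Gmps, GMP synthetase, was at 0.35, Aopep, aminopeptidase O, at 0.33, Abcc5, an exporter of cyclic nucleotides, at 0.31, and Arhgef1, an activator of RhoA, at 0.23. Rnf207 measured 9.16, 9.20, 8.93 and 8.79 in trained rats, against 8.41, 8.60, 8.16 and 8.42 in sedentary rats. Its dimmer probe sets differed by 0.34, 0.14, 0.05 and -0.004. Zfp704 was the tightest of these genes in trained rats, at 6.93, 6.93, 7.00 and 7.00, against 6.70, 6.47, 6.40 and 6.53 in sedentary rats. In both genes the lowest trained rat lay above the highest sedentary rat. Zbtb20, a zinc finger repressor named after its values were seen, differed on 3 of its 6 probe sets by 0.41, 0.53 and 0.65, and by 0.03, 0.11 and 0.20 on the others. Its brightest probe set measured 9.88, 10.18, 10.01 and 9.45 in trained rats, against 9.44, 9.27, 9.34 and 9.35 in sedentary rats, and trained rat 6 lay closest to the sedentary rats.

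On the lower side Igf2, the insulin-like growth factor that is abundant in the fetus, measured 7.67, 7.69, 7.68 and 8.08 in trained rats, against 8.31, 8.45, 8.33 and 8.36 in sedentary rats. Trained rat 6 stood above the other 3 trained rats, yet the groups did not overlap, and the difference was -0.58 ± 0.111 (SE, adjusted p = 0.109). The 3 dimmer probe sets of Igf2 differed by -0.16, -0.03 and -0.08. The other 11 genes of lowest p on that side differed by -0.38 to -0.22, with adjusted p between 0.163 and 0.197. They comprised Coq9 at -0.38, a gene of coenzyme Q synthesis, Jam2 at -0.38, a junctional adhesion molecule, Smoc1 at -0.35, a matrix calcium-binding protein, and Myg1 at -0.34. Farp1, Papss2 and Armcx6 lay at -0.28, -0.27 and -0.27, and Limk1, a kinase of cofilin, Gtse1, Sirpa, the receptor for CD47, and Camk2g at -0.25, -0.24, -0.24 and -0.22. Jam2 measured 6.38, 6.49, 6.53 and 6.47 in trained rats, against 6.85, 6.91, 6.87 and 6.76 in sedentary rats. These groups stood 0.38 apart with an SD of 0.0614 in trained rats and 0.0663 in sedentary rats (n = 4 each), while its bright probe set at a mean of 10.2 differed by -0.06. Coq9 was lower on its dim probe set alone, since its bright one at a mean of 12.1 differed by 0.03. The brighter probe sets of Sirpa and Myg1, at means of 7.92 and 8.49, differed by 0.01 and -0.03. Over the 16 of the 24 genes that had further probe sets, 23 of 30 of these lay on the side of the first.

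**Figure D1:**
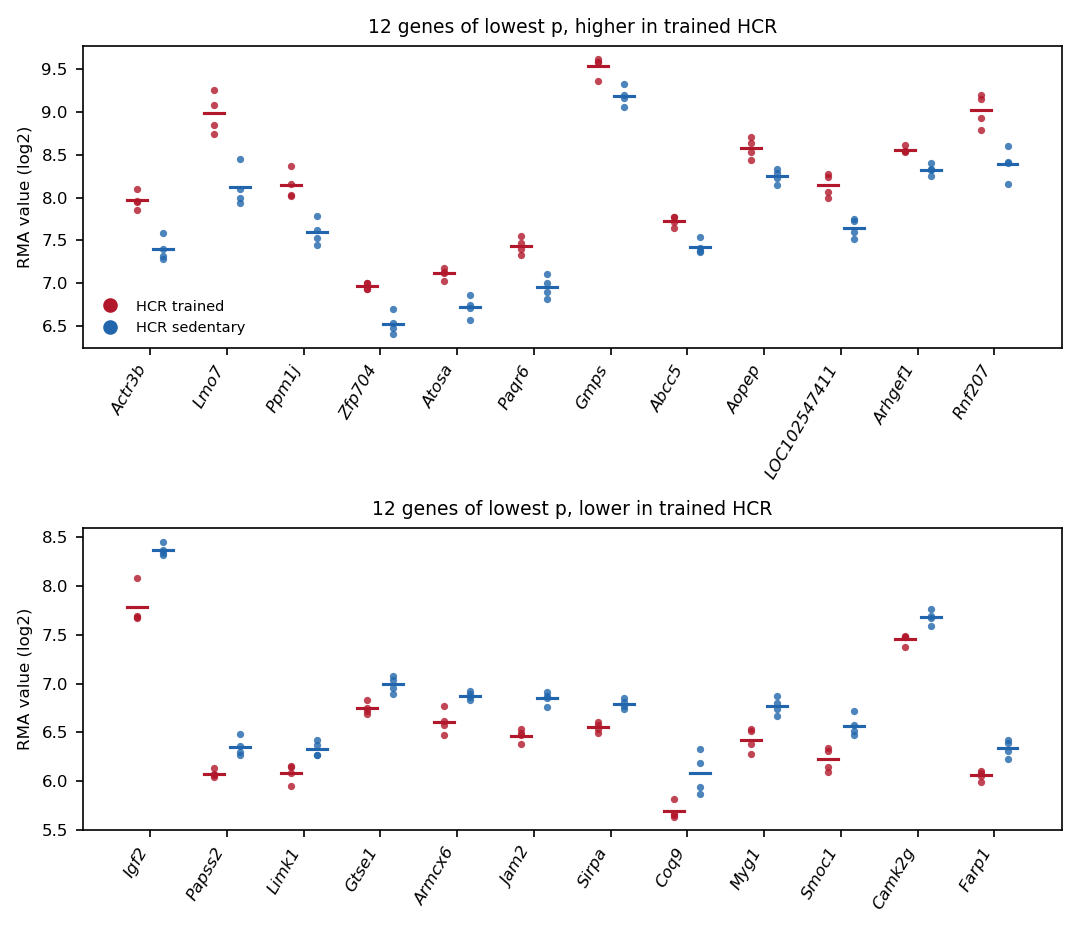
RMA value (log2) of each rat for the 12 genes of lowest p in either direction, trained HCR (red) left of sedentary HCR (blue), 4 rats each, with a bar at the mean. The groups do not overlap for any of the 24, which is part of how they were chosen, and trained Igf2 has 1 rat at 8.08 above 3 rats at 7.67 to 7.69.

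In the low capacity runners, where training left 1 probe set called (0.00322%), the same genes lay on either side of 0. Among the 12 higher genes the LCR training difference was above 0 for 5, and among the 12 lower genes it was below 0 for 6, with the lowest LCR adjusted p at 0.459. Ppm1j had the largest of these LCR differences, 0.39 ± 0.0950 (SE), next to 0.55 in HCR. The test of whether the training difference differed between the lines called 0 of 31042 probe sets (0%), with 3068 at an unadjusted p under 0.05. Its adjusted p for these 24 genes ranged from 0.368 to 0.670. A dependence of the response on the line was therefore not shown for any of them.

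**Figure D2:**
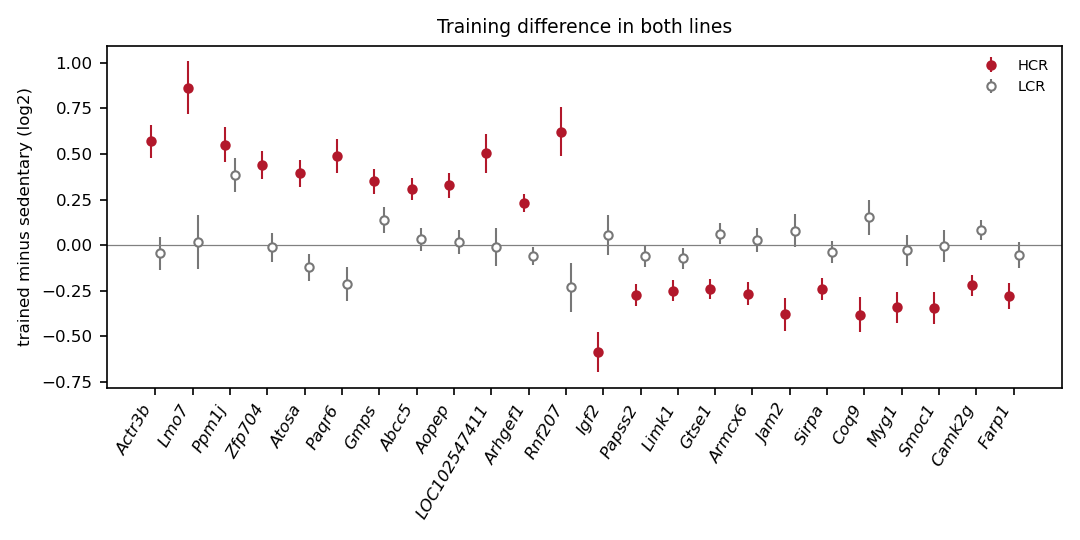
Training difference (trained minus sedentary, log2) of the same 24 genes in HCR (filled red) and LCR (open grey), with bars of 1 SE. In HCR the differences run from -0.58 to 0.86, and in LCR the points of most genes sit near 0, with Ppm1j at 0.39.

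Growth signalling held 26 measured genes, 18 of them higher and 8 lower in trained HCR rats, with a median difference of 0.08, whereas 7382 of all 14217 genes were higher (51.9%) with a median of 0.01. At an unadjusted p under 0.05 there were 7 higher and 2 lower, beside 2014 higher and 2294 lower of all 31042 probe sets. Without overlap 4 were higher and 1 lower, beside 4.51 and 3.78% of all genes. After quantile normalization of the summarised values, 1 was higher and 2 were lower without overlap, beside 386 and 475 of all 14217 genes. Mtor, the kinase at the centre of the growth pathway, measured 8.40, 8.23, 8.26 and 8.12 in trained rats, against 8.12, 7.94, 8.02 and 8.12 in sedentary rats. The lowest trained rat sat next to the highest sedentary rats, and the difference was 0.20 ± 0.0699 (SE, adjusted p = 0.258). Rptor, the partner that defines mTOR complex 1, differed by 0.16 ± 0.0579 (SE, adjusted p = 0.263), and Rictor, the partner in complex 2, by 0.30 ± 0.109 (SE), both without overlap. Pik3ca, a catalytic subunit of PI3K, differed by 0.18 ± 0.0704 (SE) on its brightest probe set, also without overlap. Its other probe sets differed by 0.09, 0.17, 0.31, 0.05 and 0.07, and the dim one of Rictor by 0.03, all with overlapping groups. Rictor and Pik3ca were named after their values were seen. Igf1 had overlapping groups with a difference of 0.07, and the ligand Nrg1 differed by -0.21.

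Immediate early genes lay on the lower side: 24 of 25 measured members were lower and 1 higher in trained rats, with a median of -0.17, while 48.1% of all genes were lower. Of the 25, 5 had an unadjusted p under 0.05, all lower, beside 2294 lower of all 31042 probe sets. Without overlap 1 was lower, beside 3.78% of all genes. Klf4, a zinc finger transcription factor, was that gene, at 8.56, 8.55, 8.33 and 8.40 in trained rats, against 9.02, 8.57, 8.82 and 8.85 in sedentary rats. The difference was -0.35 ± 0.104 (SE, adjusted p = 0.221), and sedentary rat 4 lay next to the trained rats. Fos, a component of the AP-1 transcription factor, measured 8.28, 6.89, 5.94 and 6.05 in trained rats, against 6.78, 8.99, 8.59 and 8.39 in sedentary rats. Trained rat 3 and sedentary rat 3 stood apart from their groups, so that the groups overlapped, and the difference was -1.40 ± 0.60 (SE, adjusted p = 0.327). Egr1 measured 8.50, 7.72, 7.84 and 7.88 in trained rats, against 7.82, 9.65, 9.46 and 9.23 in sedentary rats, and differed by -1.06 ± 0.393 (SE, adjusted p = 0.278). The same 2 rats overlapped, and likewise for Nr4a1, an orphan nuclear receptor, which measured 7.68, 7.08, 7.06 and 7.23 in trained rats, against 7.18, 8.21, 8.53 and 8.71 in sedentary rats. Egr3 differed by -0.25, Ier2 by -0.28, Junb by -0.29 and Dusp1, a phosphatase of MAP kinases, by -0.27, each with overlapping groups. Fos, Egr1 and Nr4a1 were named after their values were seen. Without sedentary rat 5 and trained rat 6, Fos differed by -1.02, Egr1 by -0.88 and Nr4a1 by -0.76. In LCR the list had a median of -0.12, with Fos at -1.17 and Egr1 at -0.93.

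**Figure D3:**
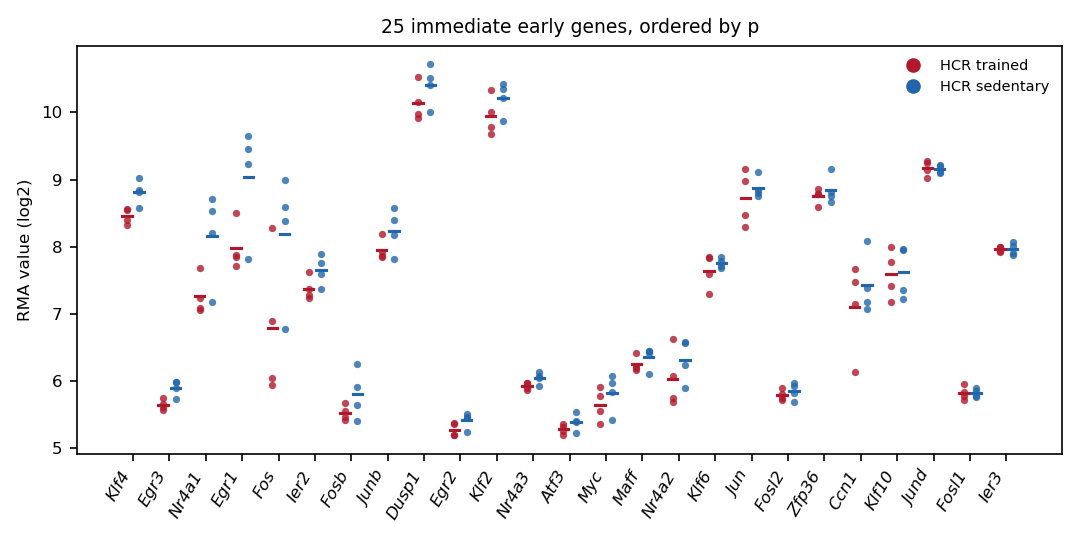
RMA value (log2) of each rat for the 25 measured immediate early genes, ordered by p, trained HCR (red) left of sedentary HCR (blue), with a bar at the mean of 4 rats. For Fos, Egr1 and Nr4a1 1 trained rat lies high and 1 sedentary rat lies low, and the means differ by -1.40, -1.06 and -0.89.

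Of these 25 genes, 16 had a promoter in the RefSeq table (GRCr8), which gives 250 bases before and 50 after the start of a gene. The letters of the CArG box, the site bound by serum response factor, were searched on both strands, as was the cyclic AMP response element TGACGTCA, which reads alike on both. The CArG box was found in 4 of 16 and in 1.64% of all 33469 promoters, the response element in 4 of 16 and in 1.83% of all, with 8 of 16 holding either and 3.44% of all. A match describes the letters only and is no proof of a bound site. Egr1, which holds 2 CArG boxes, and Ier2 and Dusp1, which hold 1 response element each, are shown as holders of each motif among the members with differences of -0.27 or beyond. Fosb, Junb, Nr4a1, Nr4a2, Klf4 and Ccn1, which lay as low, held neither, and Jund, the higher member, held the response element. Capitals mark the matches, and the lines give chr18:26736828-26737127 (plus strand), chr19:40399123-40399422 (plus strand) and chr10:17184603-17184902 (plus strand).
Egr1: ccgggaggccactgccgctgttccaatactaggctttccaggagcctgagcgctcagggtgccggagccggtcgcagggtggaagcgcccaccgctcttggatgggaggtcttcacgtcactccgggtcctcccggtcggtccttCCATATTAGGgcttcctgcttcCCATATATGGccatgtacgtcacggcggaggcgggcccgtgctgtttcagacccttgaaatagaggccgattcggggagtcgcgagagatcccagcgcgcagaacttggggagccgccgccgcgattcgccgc
Ier2: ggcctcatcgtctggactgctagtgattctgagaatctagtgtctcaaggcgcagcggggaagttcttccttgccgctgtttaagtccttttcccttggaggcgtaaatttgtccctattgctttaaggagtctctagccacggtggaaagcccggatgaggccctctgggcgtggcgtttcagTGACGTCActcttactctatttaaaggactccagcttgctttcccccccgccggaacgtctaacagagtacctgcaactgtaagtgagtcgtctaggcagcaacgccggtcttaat
Dusp1: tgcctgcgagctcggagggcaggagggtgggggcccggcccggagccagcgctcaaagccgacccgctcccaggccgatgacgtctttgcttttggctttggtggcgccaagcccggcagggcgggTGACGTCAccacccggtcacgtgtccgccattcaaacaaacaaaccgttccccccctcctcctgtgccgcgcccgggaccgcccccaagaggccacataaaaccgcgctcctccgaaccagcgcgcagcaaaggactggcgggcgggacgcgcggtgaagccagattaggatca

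Glycolysis and glucose transport showed 19 of 23 genes higher with a median of 0.05, 4 of them at an unadjusted p under 0.05, beside 13.9% of all probe sets, and 3 higher without overlap, beside 4.51% of all genes. After quantile normalization 2 were higher without overlap, beside 386 of all 14217 genes. Eno3, the muscle enolase, measured 12.48, 11.76, 12.15 and 12.04 in trained rats, against 11.52, 11.66, 11.07 and 11.20 in sedentary rats. The lowest trained value lay just above the highest sedentary one, and the difference was 0.74 ± 0.176 (SE, adjusted p = 0.184). Pfkfb2, which makes the activator of phosphofructokinase in heart, differed by 0.52 ± 0.132 (SE, adjusted p = 0.189). Slc2a4, the insulin-responsive glucose transporter, differed by 0.24 ± 0.0882 (SE, adjusted p = 0.275) with overlapping groups, trained rat 4 at 11.29 lying below sedentary rat 3 at 11.32, and Ldha by 0.09.

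Mitochondrial lists had medians of 0.09 or less. Mitochondrial ribosome genes were higher in 23 of 23, with a median of 0.09 and 2 without overlap, beside 4.51% of all genes, Mrpl20 at 0.18 and Mrps28 at 0.13. After quantile normalization these differed by 0.10 and 0.05. There 0 members were without overlap, beside 386 higher and 475 lower of all 14217 genes. The respiratory chain had 12 of 23 higher with a median of 0.00, the tricarboxylic acid cycle 11 of 21 with a median of 0.00, and fatty acid oxidation 18 of 24 with a median of 0.02, or 12 of 24 after quantile normalization. Within these, Sdha, a subunit of succinate dehydrogenase, differed by -0.06 and Eci2, a fatty acid isomerase, by 0.15. Perm1, a muscle regulator of mitochondrial genes, measured 10.02, 9.90, 9.81 and 9.82 in trained rats, against 9.69, 9.56, 9.55 and 9.65 in sedentary rats, a difference of 0.28 ± 0.0795 (SE, adjusted p = 0.214). Ppargc1a at 0.04, Ppara at -0.09, Pdk4 at 0.12, Ucp3 at -0.06, Cpt1b at 0.02 and Cs at 0.00 had overlapping groups. Bckdk, the kinase that restrains branched-chain amino acid breakdown, differed by 0.29 ± 0.0904 (SE, adjusted p = 0.239).

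In the sarcomere list 1 of 23 genes, Ttn, was higher without overlap, beside 4.51% of all genes. Ttn, titin, measured 13.39, 13.33, 13.35 and 13.25 in trained rats, against 12.93, 13.06, 12.97 and 12.96 in sedentary rats, a difference of 0.35 ± 0.0888 (SE, adjusted p = 0.189). The sarcomere list had 17 of 23 higher and a median of 0.01. In the calcium list, 14 of 23 were higher with a median of 0.01, and 3 were higher without overlap, beside 4.51% of all genes, Camk2d at 0.17, Ryr2 at 0.17 and Stim1 at 0.21. After quantile normalization 0 members of the calcium list were without overlap, beside 386 higher and 475 lower of all 14217 genes. Camk2d, the main cardiac isoform of calcium/calmodulin kinase II, measured 10.62, 10.52, 10.62 and 10.67 in trained rats, against 10.46, 10.42, 10.38 and 10.48 in sedentary rats, and its difference in LCR was -0.24 ± 0.0546 (SE). The test of whether the training difference differed between the lines gave Camk2d an unadjusted p of 7.5e-05 and an adjusted p of 0.368. Atp2a2 at 0.00 and Pln at -0.01, the calcium pump of the sarcoplasmic reticulum and its inhibitor, overlapped between groups.

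Fetal and hypertrophy genes were higher in 13 of 23 with a median of 0.02, and in 11 of 23 after quantile normalization. Of these, 2 were lower without overlap, beside 3.78% of all genes. Receptor signalling genes were lower in 14 of 22, with a median of -0.03. Nppa differed by 0.21, Nppb by -0.10, Acta1 by 0.14, Myh6 by 0.07 and Myh7 by -0.13, each with overlapping groups. Npr3, the natriuretic peptide clearance receptor, differed by -0.26 ± 0.0776 and Cited4 by -0.25 ± 0.0873 (SE), both without overlap. Cebpb, a member of the same list, stayed above 0 with each rat left out in turn, at 0.16 to 0.44. Agtr2, the angiotensin type 2 receptor, measured 5.18, 5.01, 5.16 and 5.28 in trained rats, against 5.39, 5.43, 5.64 and 5.53 in sedentary rats, with an adjusted p of 0.177. Chrm2 at -0.15 and Gnas at -0.10 were also lower without overlap. With Agtr2 these were 3 of the 22 signalling genes, beside 3.78% of all genes. The ion channel list had 10 higher and 10 lower of 20, with a median of -0.01. Without overlap 1 was higher, Kcnd3 at 0.34, and 2 were lower, the pacemaker channel Hcn4 at -0.20 and Kcna5 at -0.19. Over all genes these shares were 4.51 and 3.78%. All values of Agtr2, Chrm2 and Npr3 in these rats lay below the median level of probe sets, 5.90.

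Angiogenesis and hypoxia genes were higher in 17 of 27, and in 10 of 27 after quantile normalization. Of these 27, 1 was higher without overlap, beside 4.51% of all genes. Vegfa, the main angiogenic growth factor, measured 11.26, 11.08, 11.17 and 11.07 in trained rats, against 10.83, 10.99, 10.81 and 10.88 in sedentary rats, a difference of 0.27 ± 0.0754 (SE, adjusted p = 0.210), and its receptor Kdr overlapped at 0.07. Matrix turnover and TGF-beta genes were higher in 12 of 26, and in 7 of 26 after quantile normalization. Here 1 was higher and 1 lower without overlap, beside 4.51 and 3.78% of all genes. These were Mmp11 at 0.36 and Tgfbr3 at -0.24. In the collagen and matrix list, Lox, which cross-links collagen, differed by 0.32, and Col1a1 at 0.27 and Col3a1 at 0.10 overlapped. Trim63, the muscle ubiquitin ligase MuRF1, differed by 0.35 ± 0.115 (SE, adjusted p = 0.242). In the clock, Nr1d2, a repressor of the clock named after its values were seen, differed by 0.54 with overlapping groups, Dbp by 0.22 and Rora by -0.17.

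Protein folding and degradation lists were mostly higher in the deposited values. Heat shock and folding genes were higher in 15 of 25 with a median of 0.03, and 2 did not overlap, beside 4.51% of all genes, Hspb6 at 0.13 and Bag3 at 0.11. After quantile normalization the list was higher in 11 of 25 with a median of -0.02. There 1 was higher without overlap, beside 386 of all 14217 genes. Hspb6, a small heat shock protein of muscle, measured 13.66, 13.71, 13.69 and 13.75 in trained rats, against 13.58, 13.54, 13.59 and 13.57 in sedentary rats. Its groups were close together and separate, with an adjusted p of 0.290. Autophagy and lysosome genes were higher in 18 of 22 with a median of 0.08 and none without overlap. At an unadjusted p under 0.05, 3 were higher and 1 was lower, beside 13.9% of all probe sets in either direction. Map1lc3a at 0.26 and Gabarapl1 at 0.26, both conjugated to autophagosome membranes, were among the 3. After quantile normalization 12 of the 22 were higher with a median of 0.0087, and without sedentary rat 5 and trained rat 6 the median was 0.03. ER stress genes were higher in 11 of 22, and 1 was higher without overlap, beside 4.51% of all genes. It was Manf, a secreted survival factor of the endoplasmic reticulum, at 0.19. After quantile normalization 0 members of the ER stress list were without overlap, beside 386 higher and 475 lower of all 14217 genes. Oxidative stress genes were higher in 16 of 25 with a median of 0.05, and in 13 of 25 with a median of 0.01 without sedentary rat 5, and none was separate.

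Lipid synthesis had 11 of 23 genes higher and 12 lower, with a median of -0.02. Fdft1, which makes squalene, measured 9.40, 9.37, 9.41 and 9.41 in trained rats, against 9.20, 9.06, 9.26 and 9.15 in sedentary rats, a difference of 0.23 ± 0.0840 (SE, adjusted p = 0.268). Elovl6, a fatty acid elongase, lay on the other side at -0.17, and Insig1, which holds back sterol synthesis, at 0.15. The PPAR target and fuel switch genes were higher in 13 of 21 with a median of 0.05 in HCR and had a median of 0.21 in LCR, and none was separate between the HCR groups. Without sedentary rat 5 they were higher in 11 of 21 with a median of 0.01, and after quantile normalization in 10 of 21 with a median of -0.01. The test of the line difference in training response gave an adjusted p of 0.539 for Pdk4 and 0.515 for Ucp3, members of that list. Collagen and matrix genes were higher in 19 of 28 with a median of 0.07, and in 10 of 28 with a median of -0.02 after quantile normalization.

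Immune and cell cycle lists leaned lower over the 8 arrays. Antigen presentation had 15 of 20 lower with a median of -0.07, interferon response 20 of 25 with a median of -0.06 and cell cycle 19 of 27 with a median of -0.07. Without trained rat 6 the interferon list had 12 of 25 lower and 13 higher, with a median of 0.0004, and antigen presentation 13 of 20 lower with a median of -0.07. RT1-Bb, a class II chain, measured 7.83, 8.32, 8.43 and 8.43 in trained rats, against 9.0, 8.80, 8.68 and 9.13 in sedentary rats, a difference of -0.65 ± 0.265 (SE, adjusted p = 0.308). Among cell markers, macrophage genes had 9 of 12 higher with a median of 0.14. Of these 12, 1 was lower without overlap, Aif1 at -0.27, beside 3.78% of all genes. T and NK cell genes had 9 of 12 lower with a median of -0.10. The summed macrophage marker level was 3768 to 4420 in trained rats and 3372 to 4107 in sedentary rats, and that of T and NK cells 666.0 to 1085 in trained rats and 758.2 to 1063 in sedentary rats. Both ranges overlap, and their part in the immune lists was not tested.

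Atrial cardiomyocyte markers had the lowest median of the lists in the deposited values, -0.21 over 8 genes, and -0.17 after quantile normalization. Myl7, the atrial myosin light chain, ranged from 5.14 to 7.93 in trained rats and from 5.75 to 8.83 in sedentary rats, a difference of -1.13 ± 0.677 (SE), with a wide spread in both groups. The summed atrial marker level was 4032 to 8048 in trained rats and 3569 to 7054 in sedentary rats. This linear sum is weighted to its bright member Nppa, at 11.61 to 12.78 in trained rats and 11.28 to 12.52 in sedentary rats. It therefore says little of the dimmer markers. The part of atrial markers in other results was not tested.

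The spread of values differed between the groups and moves with the level of a gene. The interquartile range of an array was 2.13 ± 0.0522 in trained rats and 2.02 ± 0.0567 in sedentary rats (SD, n = 4 each, exact permutation p = 0.0571, where 0.0286 is the smallest possible). With the probe sets divided into 4 equal bins by mean level, from dim to bright, the share of probe sets higher in trained rats was 30.2, 29.1, 48.5 and 74.5%, and the median difference -0.04, -0.06, -0.01 and 0.07. After quantile normalization of the summarised values these medians lay between -0.013 and -0.0034. Lists of bright genes moved with it: after that step mitochondrial ribosome genes were higher in 18 of 23 with a median of 0.03, and proteasome and atrophy genes were higher in 6 of 23, against 20 of 23 before it. The growth list was higher in 15 of 26 with a median of 0.02 and the glycolysis list in 15 of 23 with a median of 0.04. The immediate early list had 24 of 25 lower with a median of -0.21, and all 24 genes of lowest p kept their sign. With each array centred on its median, 72.3% of the probe sets at an unadjusted p under 0.05 were higher, against 2014 of 4308 without that step. Whether the spread of the arrays accounts for these shares was not tested.

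**Figure D4:**
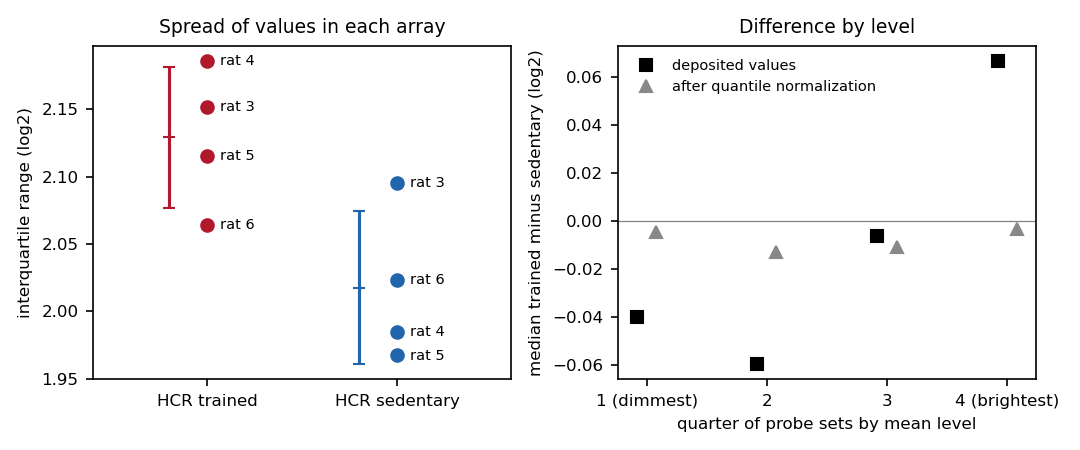
Left, interquartile range of all probe sets in each array (log2), trained HCR (red) left of sedentary HCR (blue), each rat a point, with the mean and SD beside them. Right, median difference in 4 equal bins of mean level from dim to bright, deposited values as squares and quantile-normalized values as triangles: the squares run from -0.06 to 0.07 and the triangles stay near 0.

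**Figure D5:**
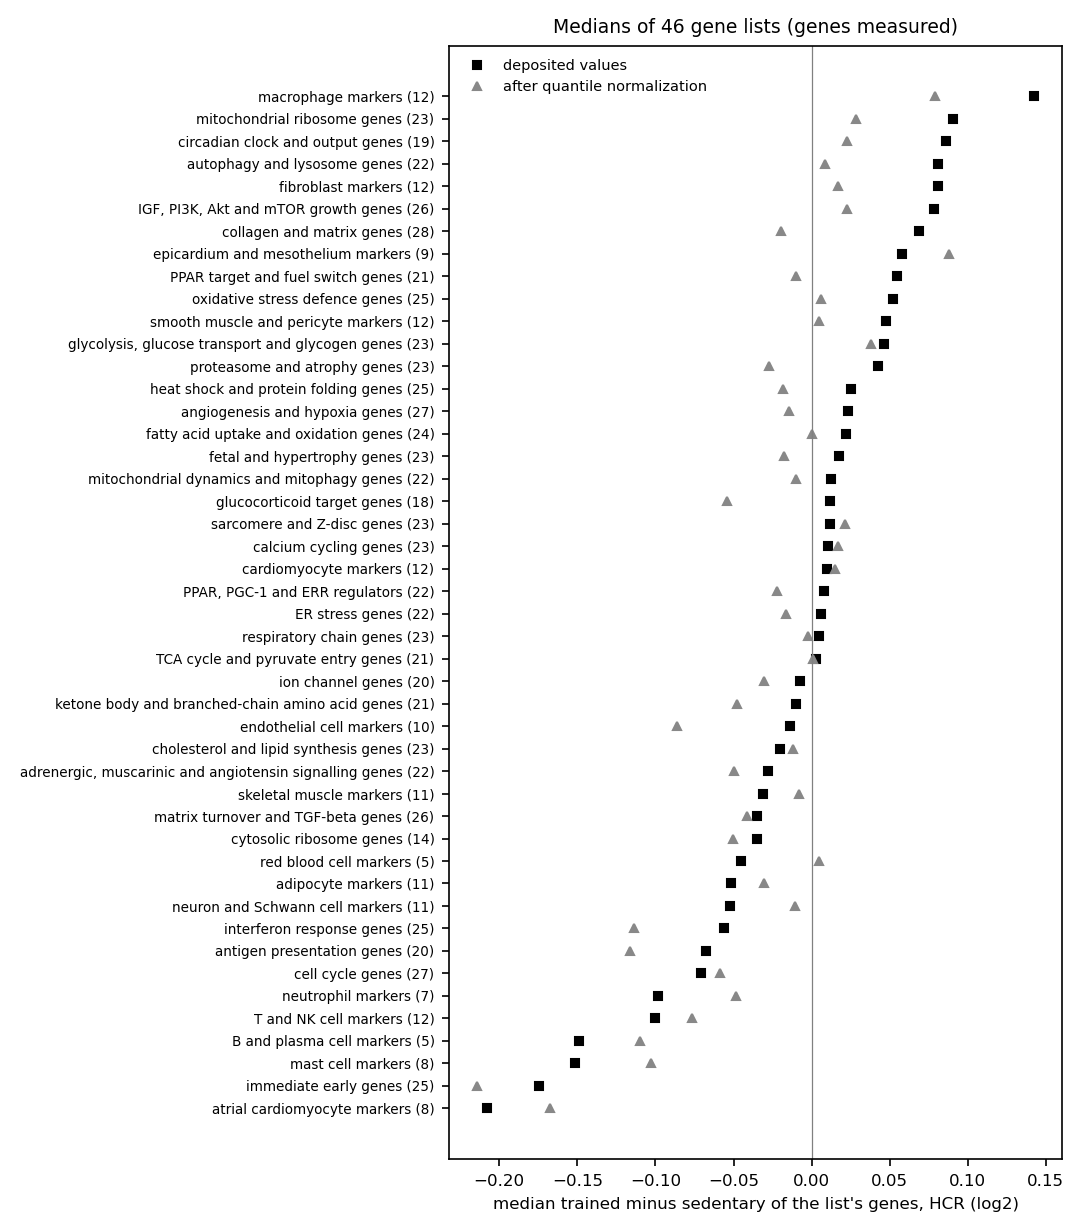
Median trained minus sedentary difference (log2) of 46 gene lists in HCR, with the number of measured genes in brackets, for deposited values (squares) and quantile-normalized values (triangles). The medians run from -0.21 to 0.14 in the deposited values, and 26 of 46 are above 0, against 16 of 46 after quantile normalization.

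The libraries that stood apart changed some of these counts. Without trained rat 6 the fit called 39 probe sets, 36 higher and 3 lower, among them Actr3b, Lmo7, Ppm1j, Aopep, Igf2 and 3 probe sets of Zbtb20. Without sedentary rat 5 it called 0, with 2851 at an unadjusted p under 0.05, and without both it called 8, all higher, of which 1 was a probe set of Zbtb20 and the other 7 had no symbol here. None of Actr3b, Lmo7, Ppm1j, Aopep and Igf2 was called without both. The immediate early list had 21 of 25 lower without sedentary rat 5, 22 of 25 without trained rat 6 and 22 of 25 without both, with medians of -0.17, -0.18 and -0.11. The growth list had 19 of 26 higher with a median of 0.09 without both, and mitochondrial ribosome genes 20 of 23 with a median of 0.11.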

How the data were processed

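RNA of 16 left ventricles was hybridised to Affymetrix rat expression arrays, 1 per rat, with groups and rat numbers taken from the sample titles. The authors computed RMA summaries before depositing them, per the submitters' processing notes, where limma is named too. No source used here states the log base. Since the deposited numbers span 3.24 to 14.5, log2 was assumed. If the base were another, signs and tests would hold but not the folds. RMA normalizes probes and not summarised values, so arrays can still differ in spread, and differences near background are compressed.

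Of 31099 probe sets, the 57 controls were dropped, and the remaining 31042 entered the test unfiltered. The platform annotation gave 1 symbol for 20826, several for 436 and none for 9780. The fit used limma 3.58.1 (R 4.3.3; linear model, contrasts and empirical Bayes) on all 16 arrays with 1 mean per group and 12 residual degrees of freedom, two-sided, with Benjamini-Hochberg adjustment over all probe sets and calls at 0.05. The contrasts were HCR training, LCR training and their difference. Lists were described by counts and medians, with 31 lists of pathways and 15 of cell markers, each gene read from its brightest probe set. Precision is limited by having 4 rats in a group. The fit was checked on simulated data.

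By rule, the genes named were the 12 of lowest p in each direction among bright, single-symbol probe sets whose groups do not overlap. To these came up to 3 members of each list without overlap, and 23 measured preset genes. Further list members were named outside these rules, among them Rictor, Pik3ca, Nrg1, Fos, Egr1, Nr4a1, Egr3, Ier2, Junb, Dusp1, Map1lc3a, Gabarapl1, Nr1d2 and Myl7. Members and lists were chosen with earlier results of these data known. Alternatives changed the normalization, the filter, the probe set per gene, the arrays fitted, the weights, the replicate block and each rat in turn. Settings with 2 rats left out, with rat 6 left out after quantile normalization, and lists or genes without rats 3, 5 or 6 were added after seeing the data.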

Additional observations from a re-analysis of the deposited data

Results flagged for a closer look

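In groups of 4 rats, 1 value far from the other 3 was looked for in 274 groups and found in 19. Chance alone marks about 1 in 20 groups. Among single genes, trained rat 6 was apart for Igf2 at 8.08 (others 7.67 to 7.69), Kcna5 at 4.94 (others 5.05 to 5.08) and Ddit4 at 6.90 (others 7.65 to 7.68). Trained rat 4 was apart for Camk2g at 7.37 and Sdha at 12.3, trained rat 5 for Gmps at 9.37 and trained rat 3 for Bag3 at 11.3. Of the sedentary rats, rat 5 was apart for Stim1 at 7.16, rat 3 for Hcn4 at 6.90 and rat 4 for Bckdk at 9.76.

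Sedentary rat 5 was also apart on all 4 Xist probe sets, at 4.54, 4.36, 3.76 and 4.94. The other 3 sedentary rats had 9.08 to 9.87, 7.78 to 7.83, 8.05 to 8.11 and 7.65 to 7.74.

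Some mean list values, taken as deviations from the mean over arrays on the log2 scale, were apart as well. Trained rat 4 was at 0.14 for fetal and hypertrophy genes, -0.023 for respiratory chain genes and 0.11 for cardiomyocyte markers. Trained rat 5 was at -0.12 for collagen and matrix genes. Sedentary rat 5 was at 0.025 for adrenergic, muscarinic and angiotensin signalling genes.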

How the results depend on the processing

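The count of 0 called probe sets became 2 with only the 8 HCR arrays, 27 with array weights and 2 with the replicate block. Leaving out 1 rat gave 0 to 39 calls, the highest without HCR trained rat 6, 3 without LCR trained rat 2 and 1 without LCR trained rat 4. It was 43 without HCR trained rat 6 after quantile normalization and 8 without HCR sedentary rat 5 and HCR trained rat 6. Every other setting run gave 0, and the test of the line difference in training response called 0 in all run. The cause was not tested. Rat numbers did not pair the samples, since the correlations of same-numbered deviations were -0.05, 0.13, 0.24 and 0.03 and 1 of 4 trained rats correlated best with its own number. Of gene results, 16 passed the threshold under an alternative and 2245 kept their sign and side. List medians moved by more than 1 SD of the rats in 57 cases. The direction of genes near 0 depended on the setting: Pln was at 0.022 with arrays centred on their medians. Quantile normalization put Ppargc1a at -0.052, Cpt1b at -0.0082, Kdr at -0.014 and Igf1 at -0.017. The same without HCR trained rat 6 put Ppargc1a at -0.018, Cpt1b at -0.042, Cs at -0.027, Kdr at -0.0070 and Col3a1 at -0.038. Without HCR sedentary rat 5 and HCR trained rat 6, it was Nppa at -0.11, Acta1 at -0.016, Pdk4 at -0.017, Cpt1b at -0.041 and Cs at -0.027. Leaving out 1 rat at a time moved the difference across 0 over these ranges: Nppb -0.26 to 0.015, Atp2a2 -0.0068 to 0.011, Ppargc1a -0.011 to 0.099, Nppa -0.0048 to 0.41, Pln -0.029 to 0.0022, Pdk4 -0.050 to 0.30, Cs -0.028 to 0.029, Hk2 -0.0050 to 0.088, Cpt1b -0.012 to 0.046, Ucp3 -0.14 to 0.065, Myh7 -0.37 to 0.014, Acta1 -0.032 to 0.25.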

Other observations

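Fam111a, named after its values were seen, fell into separate levels within both groups. It measured 11.36, 11.43, 11.33 and 4.92 in trained HCR rats, against 4.90, 4.90, 11.13 and 11.31 in sedentary HCR rats. The training difference of 1.70 ± 1.90 (SE) had an unadjusted limma p of 0.385.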
